A study of Mus musculus with 6 samples.

Results

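Of the 103911 peaks of open chromatin listed for mouse retina 2 weeks after WIF1 gene delivery, 34730 overlapped no peak of the control list or of the 4-week list by a single base pair. These 34730 regions, called members below, are the subject here. They made up 33.4% of the 2-week list (the 3 lists together hold 234026 peaks), and they covered 29.2 Mb. The members were chosen by the presence or absence of peak calls, so their counts and the nuclei that hold those counts are a description of the chosen regions and carry no test. The RNA of the genes nearest to them was not used in choosing them.

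The data came from nuclei of C57BL/6J mouse retina, dissociated with papain, in which RNA and accessible DNA were read from the same nucleus with the 10x Genomics Multiome kit. The groups were a naïve control, named Ctrl, and retinas 2 weeks and 4 weeks after an AAV2/2 virus that overexpresses Wif1 from the CMV promoter, named WIF1-2w and WIF1-4w. Each group gave 1 library from 2 eyes, and the labels do not say whether the eyes were pooled. One vector named, CMV-Wif1-HA-IRES-GFP, also encodes GFP, the other, CMV-Wif1-HA, does not, and it is not stated which of them these eyes received. The naïve eyes received no control vector, so the injection, the virus and WIF1 cannot be told apart. With 1 library per group no comparison between groups has a replicate check, and the 95% exact intervals given below cover counting error only.

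An ATAC-seq peak is a stretch where many cut ends of the Tn5 transposase fall, which marks DNA free of nucleosomes. Promoters of expressed genes are open in most cell types, while the enhancers that lie far from genes are often open in 1 cell type only. Müller glia, the main glia of the retina, and microglia, its resident macrophages, change their gene expression after retinal injury or infection, and T cells are rare in a healthy retina. WIF1 is released from cells and keeps WNT ligands from their receptors.

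A peak is called more easily in a deeper library, and the 2-week library was the deepest. It held 90490537 ATAC counts against 37525307 in the control and 71304238 at 4 weeks, and its list had 103911 peaks against 54429 and 75686. The count matrices give counts only over a library's own peaks, so counts of the other libraries within the members were not analysed here. Absence of a call in the control or at 4 weeks is therefore not absence of open chromatin. RNA depth ran the other way, with 14568384 UMIs at 2 weeks against 21805441 in the control and 19997276 at 4 weeks. After filters 7172 control, 8848 2-week and 8921 4-week nuclei were kept, with medians of 1635, 800 and 1200 UMIs. These nuclei held 80.8%, 68.9% and 83.7% of the ATAC counts of their libraries, in that order. The libraries shared between 142 and 207 barcodes per pair, at most 2.02% of the smaller library.

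Nuclei were clustered on RNA and named by markers. Since the names were rebuilt here, they are written with "-like". At 2 weeks they comprised 5641 rod-like, 482 cone-like, 1493 bipolar-like, 211 amacrine-like, 20 horizontal-like, 285 Müller-like, 52 microglia- or macrophage-like (microglia-like below), 27 T-cell-like, 57 endothelial-like and 39 pericyte-like nuclei, and 541 that stayed unnamed. The control held 14 microglia-like and the 4-week library 15, and neither held a T-cell-like nucleus that passed the filters and naming rule.

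The sequences behind several members can be shown through the promoters that lie wholly inside them. The windows below are the 250 bases before the gene start of 6 genes, from RefSeq on GRCm38.p6, written 5′ to 3′ on the strand of the gene. They were picked, after their values were seen, to show members near genes of glia, macrophages, cytokine signalling and amacrine cells. Capitals mark matches, on either strand, to short motifs: AP-1 (TGANTCA), CEBP (TTGCNNAA), CRX/OTX (TAATCC), PU.1 (GAGGAAG), STAT (TTCNNNGAA), part of the interferon-stimulated response element (GAAANNGAA) and the E-box (CAGNTG).
Cd68, chr11:69666171-69666420, minus strand: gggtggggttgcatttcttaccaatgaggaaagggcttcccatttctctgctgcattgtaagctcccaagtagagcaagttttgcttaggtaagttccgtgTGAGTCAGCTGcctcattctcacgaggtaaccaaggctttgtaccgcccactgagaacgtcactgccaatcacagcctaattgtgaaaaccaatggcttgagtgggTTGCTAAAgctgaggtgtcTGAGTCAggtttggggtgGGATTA
C1qb, chr4:136886201-136886450, minus strand: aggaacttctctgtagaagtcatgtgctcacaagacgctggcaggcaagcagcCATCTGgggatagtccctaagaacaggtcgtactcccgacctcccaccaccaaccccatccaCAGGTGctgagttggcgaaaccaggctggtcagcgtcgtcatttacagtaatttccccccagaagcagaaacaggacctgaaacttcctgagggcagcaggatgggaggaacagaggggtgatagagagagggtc
Tnfrsf1b, chr4:145246871-145247120, minus strand: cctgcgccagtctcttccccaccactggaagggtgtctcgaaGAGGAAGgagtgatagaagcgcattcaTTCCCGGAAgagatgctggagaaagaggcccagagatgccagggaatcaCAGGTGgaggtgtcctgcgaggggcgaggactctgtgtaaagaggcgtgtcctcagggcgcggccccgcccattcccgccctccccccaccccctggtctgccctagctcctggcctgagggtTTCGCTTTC
Cp, chr3:19956804-19957053, plus strand: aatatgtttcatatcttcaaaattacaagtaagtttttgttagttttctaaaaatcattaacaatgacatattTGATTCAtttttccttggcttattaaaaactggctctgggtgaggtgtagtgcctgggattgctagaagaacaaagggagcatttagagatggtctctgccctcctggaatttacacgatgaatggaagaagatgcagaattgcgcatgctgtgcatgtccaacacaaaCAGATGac
Socs3, chr11:117969367-117969616, minus strand: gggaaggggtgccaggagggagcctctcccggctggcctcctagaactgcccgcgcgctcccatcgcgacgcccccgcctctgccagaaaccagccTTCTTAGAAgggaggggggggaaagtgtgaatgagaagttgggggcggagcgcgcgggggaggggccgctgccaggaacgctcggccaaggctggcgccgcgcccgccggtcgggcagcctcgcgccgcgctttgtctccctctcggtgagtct
Slc32a1, chr2:158610508-158610757, plus strand: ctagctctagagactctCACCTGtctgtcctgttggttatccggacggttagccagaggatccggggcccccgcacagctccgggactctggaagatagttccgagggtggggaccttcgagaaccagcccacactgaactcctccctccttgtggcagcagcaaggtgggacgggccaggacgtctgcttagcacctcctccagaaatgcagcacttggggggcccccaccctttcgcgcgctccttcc

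In the Cd68 window the first AP-1 match runs into an E-box match, so the capitals form 1 longer run, and the last 6 letters match CRX/OTX on the opposite strand. Guanine and cytosine content ranged from 37.2% in the Cp window to 71.6% in the Socs3 window. Socs3, which encodes an inhibitor of cytokine signalling, had 26 CG pairs in its window, while Cp, which encodes the iron-handling ceruloplasmin, had 2. A match is a run of letters and not a measured binding site.

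The same comparison was made over all promoter windows of 300 bases, 250 before to 50 after the gene start. Of 32807 windows, 793 lay wholly inside a member and 12406 wholly inside another 2-week peak. The windows inside members had a median guanine and cytosine content of 53.3% and a median of 6 CG pairs. Those inside other 2-week peaks had 62.3% and 22 CG pairs. The remaining 19608 windows, which lay wholly inside no 2-week peak, had 48% and 4. Windows that a 2-week peak covers only in part belong to this last group. Promoters inside members thus lay between these groups and nearer in CG pairs to the windows wholly inside no 2-week peak.

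The PU.1 letters, bound by the myeloid factor PU.1 among other ETS proteins, occurred in 20.6% of the windows inside members, 12.3% of those inside other 2-week peaks and 13.6% of all windows. The AP-1 letters occurred in 9.33%, 4.30% and 7.81%. The CEBP letters occurred in 11.7%, 7.13% and 10.8%, and the E-box letters in 57.6%, 43.4% and 51.4%. For the interferon element the shares were 9.58%, 5.93% and 8.55%, for CRX/OTX 7.69%, 5.71% and 7.07%, for TCF/LEF (CTTTGAT) 4.04%, 2.43% and 3.73%, and for STAT 6.56%, 6.27% and 8.29%. All 8 motifs were more frequent inside members than inside other peaks. Against the windows wholly inside no 2-week peak, only PU.1 (14.2% there) and the E-box (56.3% there) were more frequent inside members. The AP-1 share in those windows was 9.98%. Base composition differed between the groups beside these shares, and its part in them was not tested.

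Members also overlapped 22 of the 1005 RefSeq miRNA hairpins, and other 2-week peaks overlapped 108. Members were 33.4% of the 2-week peaks, so hairpins lay in members less often than that share. Mature forms from 4 of these members, chosen after their values were seen to show different kinds of nuclei, are given, with the seed, bases 2 to 8, in capitals.
miR-181a-5p: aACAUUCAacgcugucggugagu
miR-181b-5p: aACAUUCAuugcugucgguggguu
miR-100-5p: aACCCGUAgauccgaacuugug
miR-137-3p: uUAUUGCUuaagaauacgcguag
miR-499-5p: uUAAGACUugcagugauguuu
The first pair shares its seed and comes from hairpins Mir181a-1 and Mir181b-1, both inside chr1:137966100-137967018. That member held 64 counts, of which 20 lay in amacrine-like, 10 in rod-like and 7 in bipolar-like nuclei. The Mir100 member, chr9:41531349-41532250, held 70 counts, 40 of them in Müller-like nuclei. The Mir137 member, chr3:118433353-118434357, held 81 counts, with 46 in bipolar-like nuclei. The Mir499 member, chr2:155622385-155623294, held 205 counts, 105 of them in rod-like nuclei.

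Members were weak peaks. The median member held 90 counts over all barcodes, from 45 at the 5th to 249 at the 95th percentile, in a median of 46 barcodes. Other 2-week peaks had a median of 300 counts in 151 barcodes. The 44656 2-week peaks shared with both other libraries had a median of 534 counts, the 21923 shared with 4 weeks only 159, and the 2602 shared with the control only 113. Members were 33.4% of the peaks and held 4.46% of the counts. Their median length, 867 bp, was close to the 885 bp of the other 2-week peaks.

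Peaks unique to the other libraries had similar raw counts, in libraries of lower depth. The 5067 peaks called only in the control, 9.31% of its list, had a median of 91 counts, and the 6949 called only at 4 weeks, 9.18% of that list, had a median of 94. The 2-week list thus had the larger unique share, while the unique peaks of the 3 libraries had nearly the same median raw count. Scaled to the depth of the other library, the median member would hold 37.3 counts beside the 91 of unique control peaks. For 4 weeks it would hold 70.9 beside 94.

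**Figure D1:**
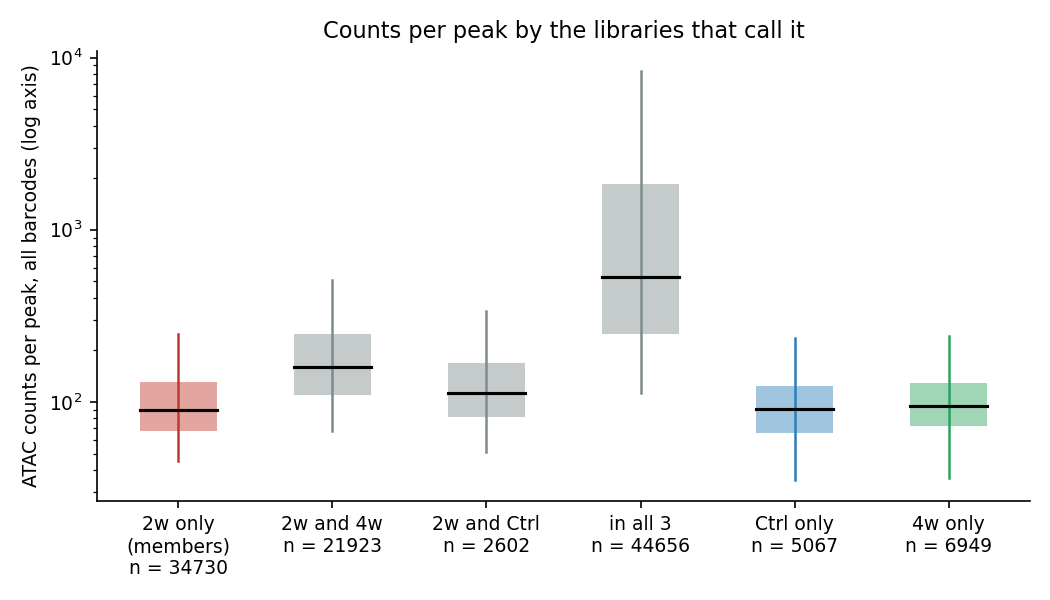
ATAC counts per peak over all barcodes of the library that called it (y axis, log scale), for 2-week peaks by the libraries that share them and for peaks unique to the control and to 4 weeks. Boxes span the 25th to 75th percentiles, black lines are medians and whiskers reach the 5th and 95th percentiles. The members' median of 90 lies beside the 91 and 94 of the other unique sets and below the 534 of peaks in all 3 lists. Counts are not scaled for library depth.

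Scaled by the ratio of total ATAC counts over all barcodes, not kept nuclei alone, the median member would hold 37.3 counts in the control and 70.9 at 4 weeks. The 5th percentile of the peaks called in those libraries was 72 and 69 counts. By this yardstick 4459 members, 12.8%, would reach the 5th percentile of called control peaks, and 18370, 52.9%, that of called 4-week peaks. Far fewer would reach the median called peak, 226 in the control (240 counts) and 1215 at 4 weeks (224 counts). Most members thus scaled to fewer counts than nearly all called control peaks held, whereas for 4 weeks similar numbers lay above and below the 5th percentile.

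Most members lay well apart from the peaks of the other lists. The median gap to the nearest control or 4-week peak was 6630 bp, 13546 members (39.0%) were over 10 kb away, and 2252 (6.48%) were closer than 500 bp. Unique control peaks had a median gap of 2621 bp and unique 4-week peaks one of 3043 bp. At the edge of the rule, chr3:34629180-34629931, nearest to Sox2 and with 42 counts, touched another peak without overlap and is a member. A peak at chr2:27969813-27970378 with 276 counts overlapped by 1 bp and is not. In all, 23 other 2-week peaks were covered by 10 bp or less, and 339 on under 50% of their length.

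The members with the most counts did not look like the typical one. The largest, chr8:71569797-71570574, lies inside Slc27a1, which encodes a fatty acid transporter, 1303 bp from the gene start and 2671 bp from the nearest peak of another list. It held 13051 counts in 5156 barcodes, at most 16 in any barcode. All classes had counts there, from 24.2 CPM in T-cell-like to 171 CPM in rod-like nuclei, where CPM scales a count to the total ATAC counts of the class. Scaled to control depth it would hold 5412 counts, above 99.0% of called control peaks, yet that list holds no peak there. Slc27a1 RNA was 34.6, 77.2 and 45.03 CPM in Ctrl, WIF1-2w and WIF1-4w over kept nuclei.

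The second, chr9:124423480-124424239 near Ppp2r3d, held 12383 counts and lay 82 bp from a peak of another list. Of the 10 largest members, 8 lay within 209 bp of such a peak, among them chr11:95309483-95309915 in Kat7 with 5631 counts and a gap of 11 bp, chr11:101551854-101552220 at Nbr1 with 5167 and 72 bp, and chr5:135009620-135010045 in Abhd11 with 4907 and 97 bp. Whether the same open stretch is listed there with other borders was not tested.

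Members were mostly distal. Only 1427 (4.11%, 95% exact interval 3.90 to 4.32) lay within 1 kb of a gene start, against 20.6% of other 2-week peaks and 28.7% of peaks in all 3 lists. Their median distance to a gene start was 25027 bp, against 13343 bp for other 2-week peaks, and 14.4% against 8.81% lay over 100 kb away. Inside genes lay 65.5% of members and 67.5% of other 2-week peaks. Among the 29796 other 2-week peaks with 45 to 249 counts, 6.44% lay within 1 kb. The part of peak size in the difference was not tested. Unique control and 4-week peaks had 5.39% and 3.64%.

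**Figure D2:**
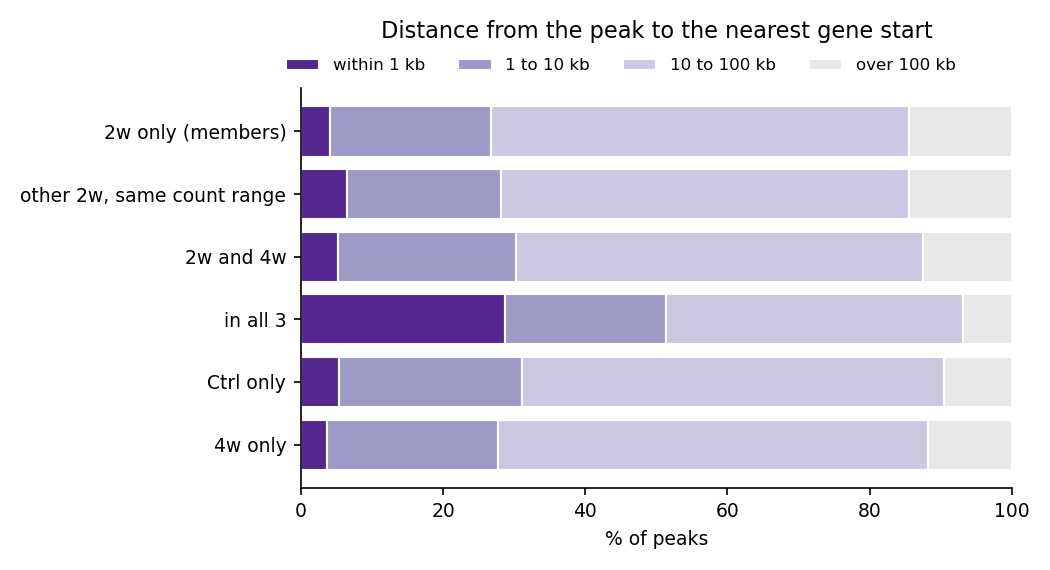
Percentage of peaks (x axis) by distance from the peak to the nearest gene start, for members, other 2-week peaks in the members' count range (5th to 95th percentile), other sharing groups and the peaks unique to the control and to 4 weeks. The members' share within 1 kb is 4.11%, against 28.7% for peaks in all 3 lists and 6.44% for other peaks in the same count range.

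At gene starts, members belonged to 1382 genes. For 220 of these a peak within 1 kb was also listed in the control or at 4 weeks, and for 1162 none was. Of the 1162 genes, 63.2%, 64.0% and 61.5% had at least 3 RNA UMIs in Ctrl, WIF1-2w and WIF1-4w, against 63.6% of all genes in Ctrl. Genes whose only listed promoter peak was a member were thus detected about as often as genes in general, and about as often in each library.

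The share of a class's counts that fell in members was highest in glia, immune cells and inhibitory neurons when set against all 2-week peaks. Of the ATAC counts of Müller-like nuclei at 2 weeks 13.7% fell in members, and of those of microglia-like nuclei 13.2%. The share was 11.1% in horizontal-like, 10.5% in amacrine-like, 9.66% in pericyte-like, 8.62% in T-cell-like, 8.22% in endothelial-like, 6.19% in bipolar-like, 4.92% in cone-like and 2.66% in rod-like nuclei. Single nuclei followed their class: the middle 50% of Müller-like nuclei ran from 13.1% to 15.5% and those of rod-like nuclei from 2.14% to 2.89%, so these ranges did not overlap.

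**Figure D3:**
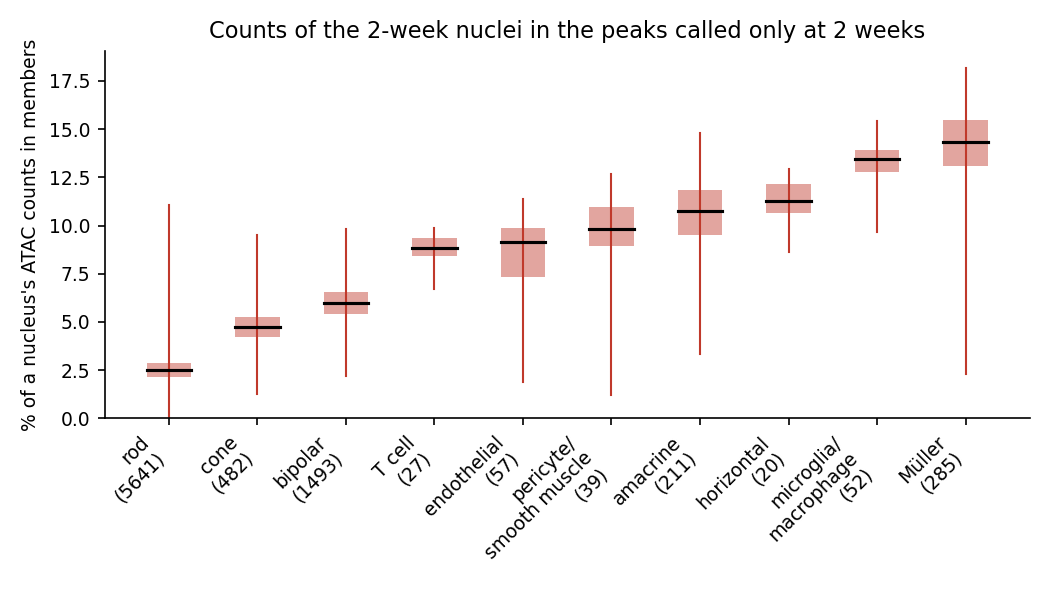
Percentage of a nucleus's ATAC counts that fall in members (y axis) by class of 2-week nuclei, with the number of nuclei in brackets. Boxes span the 25th to 75th percentiles, black lines are medians and whiskers reach the lowest and highest nucleus. Medians run from 2.50% in rod-like to 14.3% in Müller-like nuclei.

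Clusters within a class differed too. Cone-like clusters had 3.10% (18 nuclei) and 5.01% (464), amacrine-like clusters ran from 8.39% to 11.5% and bipolar-like clusters from 5.24% to 6.42%. Rod-like clusters ran from 2.57% to 3.67%, and a rod-like cluster led by Edn2 and Fgf2, genes known from stressed photoreceptors, had 2.80%. Microglia-like clusters led by Siglech, by Ctss and Ccl4, and by Lyz2 and Ccl8 had 13.3%, 12.9% and 13.7%. An unnamed cluster of 18 nuclei led by Pdgfra, with Pax2 and Gfap among its leading genes, had 14.4%, and an unnamed cluster of 17 led by Ccr7 and class II antigen presentation genes had 11.9%. An unnamed cluster of 334 nuclei led by immunoglobulin genes had 3.08%, close to the rod-like clusters.

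Another view compares each class's share of member counts with its share of the counts of other 2-week peaks. Müller-like nuclei held 10.1% of member counts and 3.09% of other counts, a ratio of 3.28. The ratio was 3.13 for microglia-like nuclei (4.28% against 1.37%), 2.58 for horizontal-like, 2.41 for amacrine-like, 2.20 for pericyte-like, 1.95 for T-cell-like, 1.85 for endothelial-like, 1.36 for bipolar-like and 1.07 for cone-like nuclei. Rod-like nuclei held 33.0% of member counts and 58.6% of other counts, a ratio of 0.564.

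Most of these class ratios lay nearer to 1 when only other 2-week peaks in the members' count range were compared. Rod-like nuclei held 27.1% of the counts of those peaks, against 58.6% for all other 2-week peaks. The restriction thus changes the class mix as well as peak size, and the part of each was not tested. Set against the other 2-week peaks of 45 to 249 counts only, the ratio was 1.21 for Müller-like, 1.07 for amacrine-like, 1.05 for horizontal-like, 1.24 for endothelial-like and 1.26 for pericyte-like nuclei. It turned to above 1 for rod-like nuclei, at 1.22, and to below 1 for bipolar-like, at 0.678, and cone-like nuclei, at 0.997. Microglia-like nuclei had a ratio of 2.26 and T-cell-like nuclei one of 1.88. With each nucleus named by its highest marker score the microglia-like ratio was 1.33 against all other peaks, and over nuclei of at least 1000 UMIs the bipolar-like ratio was 0.951. By marker score the ratio was also 1.22 for amacrine-like, 1.21 for endothelial-like and 1.36 for pericyte-like nuclei. The peaks in this count range still held more counts than the members, with a median of 143 against 90.

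Peaks unique to the other libraries gave another comparison. In the control the ratio of unique to other peaks was 1.70 for Müller-like, 1.67 for amacrine-like, 1.13 for microglia-like and 0.885 for rod-like nuclei. At 4 weeks it was 2.30 for Müller-like, 1.64 for endothelial-like, 0.797 for microglia-like and 0.875 for rod-like nuclei. A raised Müller-like and a lowered rod-like share was thus common to the unique peaks of all 3 libraries, though 5 nuclei held 56.6% and 48.3% of the Müller-like counts in unique control and 4-week peaks, against 5.67% at 2 weeks.

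**Figure D4:**
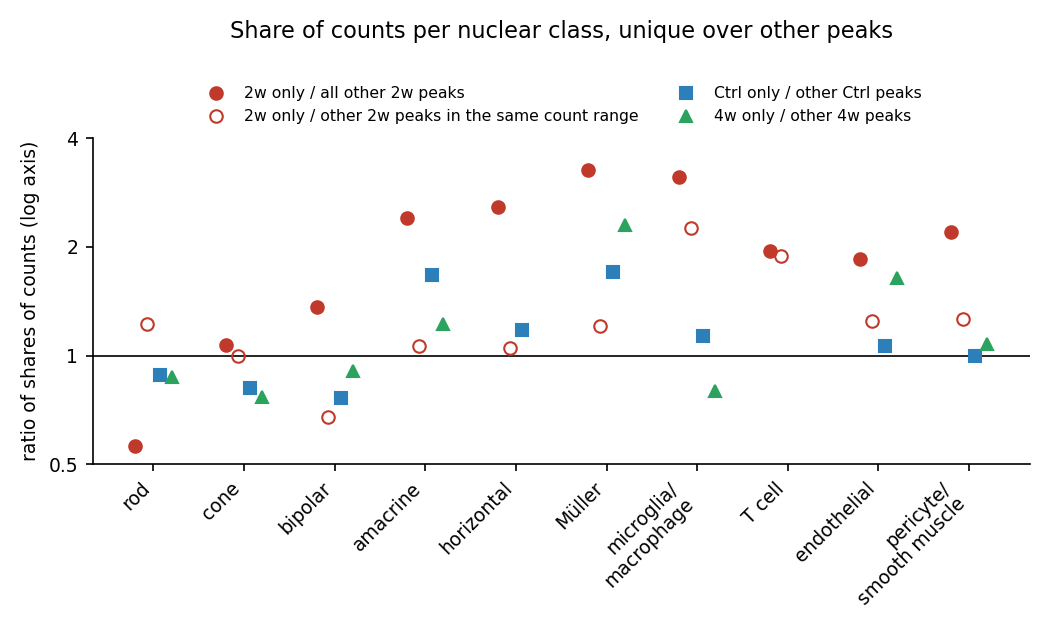
Ratio of a class's share of counts in unique peaks to its share in other peaks of the same library (y axis, log scale) by class of nuclei. Filled circles set members against all other 2-week peaks, open circles against those in the members' count range, squares and triangles show the control and 4 weeks. Microglia-like nuclei stay at 2.26 in the same count range, Müller-like nuclei move from 3.28 to 1.21 and rod-like nuclei cross 1.

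The number of counts per class differed between libraries beside these shares. Microglia-like nuclei gave 936986 ATAC counts at 2 weeks, 78687 in the control and 148532 at 4 weeks. T-cell-like nuclei gave 413202 at 2 weeks and none elsewhere. Müller-like nuclei gave 2126015 at 2 weeks, 770383 in the control and 4104246 at 4 weeks, and amacrine-like nuclei 1960321, 2605722 and 844790. Of the Müller-like counts 5 nuclei held 7.34% at 2 weeks, 36.9% in the control and 37.7% at 4 weeks. More cells of a type and more open chromatin per cell cannot be told apart in the calls.

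Single members could be assigned to a leading class, the one with the highest CPM among classes with at least 6 counts, at least 20 counts of its own and at least 2 times the CPM of all other named nuclei. Of the members, 5400 were bipolar-led, 3731 Müller-led, 2144 rod-led, 1879 amacrine-led, 1632 microglia-led, 1060 cone-led, 384 endothelial-led, 311 T-cell-led, 186 pericyte-led and 6 horizontal-led, and 17997 were led by none. Müller-led regions were 10.7% of members and 5.92% of other 2-week peaks, and microglia-led regions 4.70% and 2.38%.

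Read the other way, members were 49.7% of all microglia-led and 47.7% of all Müller-led 2-week peaks, beside 33.4% of all 2-week peaks. Among peaks with at least 100 counts, members were 33.4% of microglia-led and 31.3% of Müller-led peaks beside 19.1% of all, and in the count range of 45 to 249 they were 79.2% and 57.9% beside 51.3%. T-cell-led peaks stood at 20.3% of all and at 81.2% in that count range, and 70.8% of the T-cell-led peaks that were not members lay within 1 kb of a gene start. Members were 22.97% of rod-led and 32.2% of bipolar-led peaks.

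Single members could belong almost wholly to a class. The member most confined to Müller-like nuclei, chr10:114418895-114419770 inside Trhde, had 124 of its 127 counts in kept nuclei there, spread over 57 nuclei. For microglia-like nuclei it was chr6:95456165-95457071, in no gene, where all 65 counts of kept nuclei lay in 23 of these nuclei. These regions lay 12881 and 27111 bp from the nearest peak of another list.

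Distance to genes differed with the leading class. Of the T-cell-led members 20.9% lay within 1 kb of a gene start, of the microglia-led 10.6%, of the endothelial-led 8.07%, of the pericyte-led 8.06%, of the amacrine-led 3.83%, of the Müller-led 3.32%, of the cone-led 3.02%, of the rod-led 2.42% and of the bipolar-led 2.22%. Other 2-week peaks had 70.8% for T-cell-led and 38.0% for microglia-led, so high shares in these 2 classes are not particular to members. Class depth differed between the libraries: a median microglia-led member held 35 counts in microglia-like nuclei, which would scale to 2.94 in the control and 5.55 at 4 weeks. A median Müller-led member held 40 counts in Müller-like nuclei, which would scale to 14.5 in the control and to 77.2 at 4 weeks. That class held more counts in total at 4 weeks than at 2 weeks. At 4 weeks 5 nuclei held 37.7% of its counts, against 7.34% at 2 weeks. The median Müller-like nucleus held 4198 counts at 4 weeks and 6486 at 2 weeks. For amacrine-led members the 32 counts would scale to 42.5 in the control and 13.8 at 4 weeks.

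Of the 44 members nearest to microglia and macrophage genes, 18 were led by microglia-like nuclei. The member at the start of C1qb, a subunit of the first complement component, chr4:136885797-136886683, held 140 counts, 79 of them in 29 of the 52 microglia-like nuclei (84.3 CPM against 0.279 in all other named nuclei). At Cd68, a lysosomal glycoprotein of macrophages, chr11:69665719-69666604 held 209 counts, 64 of them in microglia-like nuclei (68.3 CPM against 1.31). These regions contain the C1qb and Cd68 windows printed above.

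Spi1, the gene of PU.1, had microglia-led members at chr2:91084074-91084965 (157 counts, 56 in microglia-like nuclei) and chr2:91096323-91097194 (107 counts, 45). A member near Fcgr1, an immunoglobulin receptor, at chr3:96300508-96301387 held 96 counts, 56 in microglia-like nuclei. RNA over kept nuclei in Ctrl, WIF1-2w and WIF1-4w was 7.69, 58.3 and 9.94 CPM for C1qb, 0.983, 6.32 and 1.198 for Cd68, and 0.462, 3.69 and 0.718 for Spi1. The 2-week library had the highest value for each, and it also had the most microglia-like nuclei, 52 against 14 and 15.

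Of the 63 members nearest to T-cell genes, the 8 T-cell-led ones included the following, chosen after their values were seen. Near Lck, the kinase that starts receptor signalling, chr4:129574987-129575900 held 127 counts, 46 of them in 15 of the 27 T-cell-like nuclei (111 CPM against 0.760). Inside Cd3d, a receptor subunit, chr9:44986185-44987102 held 138 counts, 42 of them in T-cell-like nuclei (102 CPM against 0.639). At Cd5, an inhibitory surface receptor, chr19:10738564-10739462 held 120 counts, 27 of them in T-cell-like and 32 in microglia-like nuclei, and at Bcl11b, a T-cell transcription factor, chr12:108003552-108004566 held 132 counts, 33 of them.

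These peaks were thin: 5 nuclei held 43.5% of the T-cell-like counts at Lck and 70.4% of those at Cd5. RNA over kept nuclei in Ctrl, WIF1-2w and WIF1-4w was 0.462, 3.42 and 0.419 CPM for Lck, 0, 2.81 and 0 for Cd3d, and 1.10, 16.8 and 0.659 for Ccl5, a chemokine of T cells. The values were highest at 2 weeks, the library with T-cell-like nuclei.

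Müller-led members included regions near genes of glial identity and of glial reactivity. Near Rlbp1, the retinaldehyde-binding protein of Müller glia, chr7:79388385-79389208 held 186 counts, 115 of them in 52 of the 285 Müller-like nuclei (54.1 CPM against 0.320). Inside Kcnj10, a glial potassium channel, chr1:172342556-172343418 held 170 counts, 97 of them Müller-like (45.6 against 0.178 CPM). These lay 743 and 970 bp from the nearest peak of another list.

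Among reactivity genes, a member near Serpina3n, a serine protease inhibitor raised in reactive astrocytes, chr12:104431152-104432018, had 63 of 101 counts in Müller-like nuclei (29.6 against 0.214 CPM). At the start of Cp, chr3:19956562-19957457 held 124 counts, 47 of them Müller-like (22.1 against 0.623 CPM). Inside Osmr, the receptor for oncostatin M, chr15:6849639-6850542 held 76 counts, 47 of them Müller-like. At the start of Tnfrsf1a, a receptor for tumour necrosis factor, chr6:125349358-125350151 held 150 counts, 44 of them Müller-like.

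RNA over kept nuclei in Ctrl, WIF1-2w and WIF1-4w was 0.462, 18.3 and 2.99 CPM for Serpina3n, 66.0, 234 and 169 for Cp, 3.18, 12.1 and 5.51 for Osmr, and 2.83, 13.2 and 6.23 for Tnfrsf1a. For these 4 genes the order was the same, highest at 2 weeks and lowest in the control. Kept Müller-like nuclei numbered 124, 285 and 254 in that order, 1.73%, 3.22% and 2.85% of nuclei, so these totals move with the number of nuclei too.

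Socs3 showed members of different kinds. The one at its start, chr11:117968941-117969670, held 1133 counts and lay 53 bp from a peak of another list. Its CPM was 126 in microglia-like, 72.0 in Müller-like, 68.7 in pericyte-like, 62.9 in T-cell-like, 33.9 in cone-like and 5.73 in rod-like nuclei. The 2 members downstream, chr11:117959644-117960549 and chr11:117946427-117947356, lay 1326 and 1937 bp from other peaks and held 176 and 137 counts, of which 82 and 58 lay in microglia-like nuclei. In Müller-like nuclei these 2 held 2 counts each. Socs3 RNA was 3.12, 6.41 and 3.05 CPM in Ctrl, WIF1-2w and WIF1-4w.

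Neuron-led members included the start of Slc32a1, the vesicular transporter for GABA and glycine, at chr2:158610465-158611354, with 120 of 263 counts in amacrine-like nuclei (61.2 against 1.07 CPM). Slc32a1 RNA was highest in the control, at 34.4, 18.3 and 8.32 CPM in Ctrl, WIF1-2w and WIF1-4w, beside 376, 211 and 116 amacrine-like nuclei. At Pax6, a transcription factor of amacrine cells and glia, chr2:105668309-105669137 held 284 counts, 86 amacrine-like and 67 Müller-like. Bipolar-led members lay inside Trpm1, the channel of ON bipolar cells, at chr7:64161689-64162471 (138 counts, 94 bipolar-like), and near Isl1 at chr13:116311842-116312688 (123 counts, 95 bipolar-like). Pde6h, a cone phosphodiesterase subunit, had a cone-led member at chr6:136954258-136954956 with 99 of 195 counts in cone-like nuclei.

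Members were also grouped by lists of nearest genes. Over all genes, 15126 of 32285 (46.9%) were nearest to at least 1 member, 6968 of them to exactly 1, 1569 to 5 or more and 163 to 10 or more. The genes nearest to most were Ank3 with 25 members of 68 2-week peaks, Pcdh15 with 22 of 71, Pard3 with 21 of 55, Dach1 with 21 of 40 and 9430078K24Rik with 21 of 33. The first 4 are long genes, from 383 kb for Dach1 to 1554 kb for Pcdh15, and their members were mixed: 8 of the Pcdh15 members were rod-led and 5 of the Dach1 members Müller-led.

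**Figure D5:**
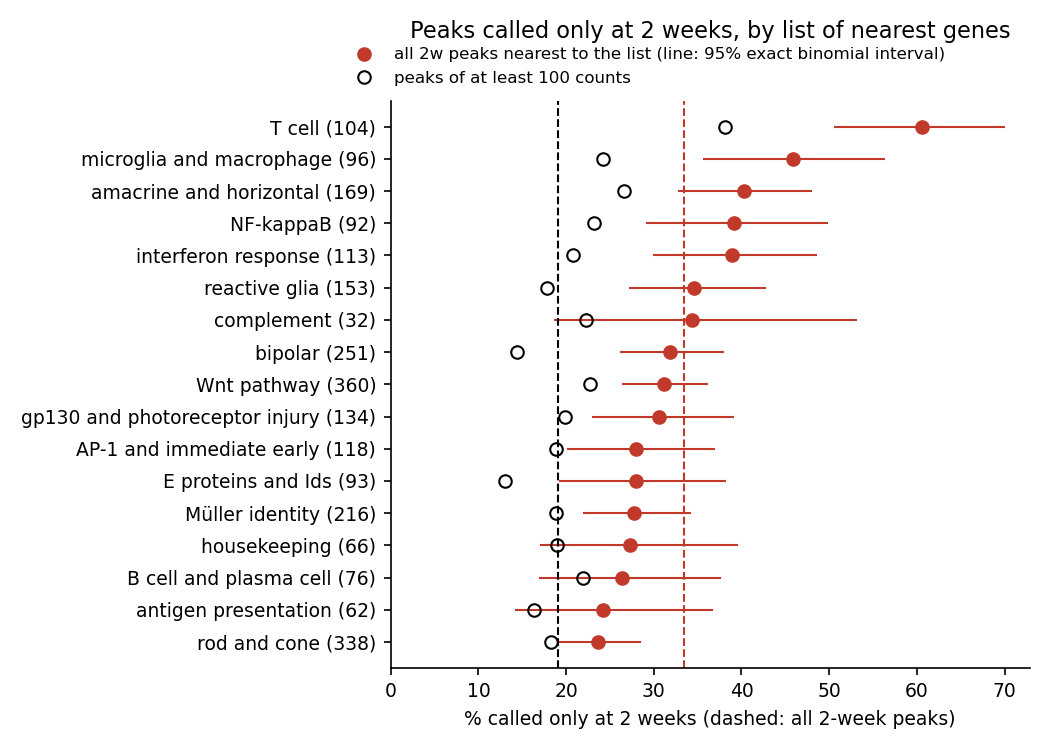
Percentage of the 2-week peaks nearest to the genes of a list that are members (x axis), with the number of peaks in brackets. Red points with 95% exact binomial intervals take all peaks, open points those of at least 100 counts, and dashed lines give the values over all 2-week peaks, 33.4% and 19.1%. The T cell list stands highest in both, at 60.6% and 38.1%.

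Around T-cell genes 63 of 104 2-week peaks (60.6%) were members, the highest share of the 17 lists. Among peaks of at least 100 counts it was 38.1%. Of the 35 genes 28 (80%) had a member, against 46.9% of all genes and 89.7% of amacrine and horizontal genes. Only 8 of these 63 members were T-cell-led, while 7 were bipolar-led and 37 led by no class. Around microglia and macrophage genes 44 of 96 peaks (45.8%) were members, or 24.2% at 100 counts or more, with the 18 microglia-led ones among them.

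Shares above 33.4% were also found for amacrine and horizontal genes (68 of 169, 40.2%), NF-kappaB genes (36 of 92, 39.1%), interferon response genes (44 of 113, 38.9%), reactive glia genes (53 of 153, 34.6%) and complement genes (11 of 32, 34.4%). The interval of each of these 5 lists includes 33.4%. The NF-kappaB members were led by Müller-like nuclei in 8 cases and microglia-like nuclei in 7, and the amacrine and horizontal members by amacrine-like nuclei in 20 cases.

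Shares below 33.4% were found for bipolar genes (80 of 251, 31.9%), gp130 and photoreceptor injury genes (41 of 134, 30.6%), AP-1 and immediate early genes (33 of 118, 28.0%), E proteins and Ids (26 of 93, 28.0%), Müller identity genes (60 of 216, 27.8%), housekeeping genes (18 of 66, 27.3%), B cell and plasma cell genes (20 of 76, 26.3%), antigen presentation genes (15 of 62, 24.2%) and rod and cone genes (80 of 338, 23.7%). The intervals of 8 of these 9 lists include 33.4%, and that of rod and cone genes (19.2 to 28.6) does not. Many peaks share a gene, so the intervals of these lists and of those above are no test. Rod and cone peaks that were not members had a median of 671.5 counts, against 300 for other 2-week peaks. Of the 80 rod and cone members, 28 were rod-led and 11 cone-led. Among peaks of at least 100 counts the rod and cone share was 18.2%, near the 19.1% of all, the gp130 (19.8%) and B cell (21.9%) shares were above it, and E proteins (13.04%) and bipolar genes (14.4%) were lower. Reactive glia and Müller identity lists were thus near or below the share of all peaks, although single members near their genes were strongly Müller-led.

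For the WNT pathway, which WIF1 acts on, 112 of 360 peaks (31.1%, interval 26.4 to 36.2) were members. At least 1 member lay nearest to 48 of 65 genes (73.85%), beside 46.9% of all genes. That share was also high in other lists, at 89.7% for amacrine and horizontal and 75% for reactive glia genes. It was 50% for housekeeping and 37.0% for antigen presentation genes. Among WNT pathway peaks of at least 100 counts, 22.7% were members. Of the 112 members 21 were Müller-led, 18 bipolar-led and 11 rod-led. Among receptors, a member near Fzd5 at chr1:64779515-64780387 had 81 of 177 counts in Müller-like nuclei, one inside Lrp5 at chr19:3638388-3639260 had 50 of 136, and one inside Ror2 at chr13:53268305-53269114 had 48 of 77. Inside Gsk3b, the kinase that marks beta-catenin for destruction, chr16:38115685-38116501 held 395 counts, 190 of them rod-like. At the start of Wnt11, a ligand, chr7:98834570-98835429 held 214 counts and was led by no class.

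Wif1 itself had 2 members, both inside the gene. One at chr10:121040702-121041518, 7150 bp from the gene start, held 78 counts, with 50 in bipolar-like and 0 in Müller-like nuclei. The other at chr10:121055369-121056309, 21879 bp from it, held 66 counts, 24 of them Müller-like and 4 bipolar-like. Neither lay at the promoter, and they lay 6354 and 21021 bp from the nearest peak of another list. Wif1 RNA was 0.0578, 0.966 and 2.21 CPM over kept nuclei in Ctrl, WIF1-2w and WIF1-4w, and endogenous and vector-derived RNA cannot be told apart in these counts.

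RNA of nearest genes was compared between 2 weeks and the control within a class, over genes with at least 30 UMIs in the higher library. In Müller-like nuclei 141 genes with a member within 1 kb of the start were measured, and 25 of them (17.7%, interval 11.8 to 25.1) were at least 2-fold higher at 2 weeks, against 6.37% of all 5559 measured genes. At least 2-fold lower were 10 (7.09%), against 7.12% of all. Since a gene could pass the minimum through the 2-week library alone, these shares describe the genes that passed and support nothing. With genes of at least 1 UMI the share was 8.68%, against 5.71% of all genes. Against 4 weeks it was 11.6%, beside 3.92% of all genes.

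In rod-like nuclei 165 such genes were measured, of which 15 (9.09%) were at least 2-fold higher (interval 5.18 to 14.6), against 2.97% of all genes, and 7 (4.24%, interval 1.72 to 8.54) at least 2-fold lower, against 1.84%. In bipolar-like nuclei 8 of 223 (3.59%, interval 1.56 to 6.95) were at least 2-fold higher, against 1.75%, and 15 (6.73%, interval 3.81 to 10.8) at least 2-fold lower, against 2.21%. The intervals for lower genes in rod-like and for higher genes in bipolar-like nuclei include the share of all genes. In both classes the shares of higher and of lower genes lay above those of all genes. Here too a gene could pass the minimum through either library alone. The shares and intervals thus describe the genes that passed and support nothing. These genes were also measured with fewer counts than promoters in general: 141 of 1382 passed the minimum in Müller-like nuclei, against 4666 of 13470 genes with another promoter peak.

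The next gene sets took members at any distance from the gene start, promoter members included. Genes with a Müller-led member had a median log2 ratio of 0.24 in Müller-like nuclei (780 genes), and genes with another Müller-led peak one of 0.14 (639 genes). At least 2-fold higher were 7.44% and 7.36% of them, beside 6.37% of all genes. Genes with a rod-led member had a median of −0.01 in rod-like nuclei, and genes with a bipolar-led member −0.05 in bipolar-like nuclei, against 0.05 and 0.00 over all genes. With genes of at least 1 UMI the 3 medians had the other sign, −0.18 in Müller-like, 0.07 in rod-like and 0.17 in bipolar-like nuclei. The medians over all genes were then −0.33, 0.38 and 0.24. At that minimum, genes with at most 3 UMIs in both libraries take a ratio fixed by the floor of 3 UMIs and the class totals. These signs therefore carry no reading about the genes. Of the 543 measured genes with 5 or more members, 13.4% were at least 2-fold lower in Müller-like nuclei, against 7.12% of all, and 2.76% at least 2-fold higher, against 6.37%. The summed RNA of rod markers in these nuclei was 8753 CPM in the control and 2123 at 2 weeks, and its part in this was not tested.

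Among genes that reached 50 CPM in either library, those with a promoter member that differed most in Müller-like nuclei included immune and early response genes. Fos, an immediate early gene, had 2, 57 and 10 UMIs in Ctrl, WIF1-2w and WIF1-4w, or 4.47, 77.1 and 8.35 CPM, with a counting interval of the 2-week over control ratio from 4.56 to 146. C4b, a complement component, had 6, 95 and 62 UMIs, 9.58-fold higher at 2 weeks than in the control (4.24 to 26.8). Iigp1, an interferon-induced GTPase, had 4, 40 and 1 UMIs, 6.05-fold higher (2.19 to 23.3). H2-T23, a class I antigen presentation gene, had 9, 82 and 46 UMIs, 5.51-fold higher (2.77 to 12.5). These genes were named for their extreme ratios, and against the control each reached 30 UMIs only at 2 weeks. Their intervals, like those of the genes named below, describe genes picked by ratio and support nothing. In CPM all 4 genes were highest at 2 weeks, and Iigp1 alone among them was lowest at 4 weeks. Müller-like nuclei held 6 of the 1171 counts of the promoter member at Fos and 17 of 254 at H2-T23. They held 30 of 89 at C4b and 19 of 90 at Iigp1. The Fos member was bipolar-led, the H2-T23 member microglia-led, and those at C4b and Iigp1 were led by no class. At Fos and H2-T23 another library also listed a promoter peak.

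Among the genes that were lowest in Müller-like nuclei at 2 weeks were Nxph1, Rims2, Fabp12 and Akap6. Rims2, which encodes a protein of the presynaptic active zone, had 281, 49 and 1139 UMIs in Ctrl, WIF1-2w and WIF1-4w, 9.47-fold lower at 2 weeks than in the control (6.97 to 13.1). Müller-like nuclei held 10 of 82 counts of the promoter member at Nxph1 and 18 of 1870 at Rims2. They held 0 of 87 at Fabp12 and 0 of 239 at Akap6. In CPM, Rims2 stood at 628, 66.3 and 951 in Ctrl, WIF1-2w and WIF1-4w. The summed rod markers in Müller-like nuclei stood at 8753, 2123 and 7552 CPM in the same order. Both were lowest at 2 weeks, while at 4 weeks Rims2 was above and the rod markers below the control. A link between them was not tested.

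In rod-like nuclei Fgf2os, an antisense gene at the growth factor gene Fgf2, had 85, 276 and 156 UMIs, 4.22-fold higher at 2 weeks than in the control (3.30 to 5.45). Its member, chr3:37349433-37349894, held 255 counts, 109 of them rod-like, and lay 116 bp from a peak of another list. Whether reads of Fgf2os and of overlapping genes on the other strand were told apart is not given in the sources used here. Il27, a cytokine gene, was 2.21-fold higher in rod-like (468 and 795 UMIs) and 2.14-fold higher in bipolar-like nuclei (350 and 447 UMIs). Pde6h was 1.65-fold lower in rod-like nuclei (1059 and 494 UMIs).

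In bipolar-like nuclei Kdm6b, a histone demethylase gene, had 289 UMIs in the control and 476 at 2 weeks, 2.77-fold higher (2.38 to 3.21), and 300 at 4 weeks. Its member, chr11:69412963-69413842, held 897 counts, 244 of them bipolar-like, in no leading class. Fos was 1.99-fold higher (1.63 to 2.44), and its member, chr12:85474529-85475159, was bipolar-led with 361 of 1171 counts.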

How the data were processed

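The authors deposited whole-number counts for each nucleus, of UMIs by gene and of ATAC signal by peak, in 1 matrix per library. Cell Ranger ARC 2.0.1, Seurat 5.0.1, Signac 1.12.0 and mm10 are named per the submitters' processing notes, with no role given. Peaks were listed per library. ATAC counts were mostly even (84.3% to 89.6% of entries), as if both ends of a fragment were counted, so intervals (95%, exact) use halved counts.

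Nuclei needed 500 UMIs, 300 genes and at most 10% mitochondrial UMIs. Doublets were removed by Scrublet score at 0.8% per 1000 barcodes, since its own threshold called at most 1 nucleus per library. Clusters (scanpy 1.11.5, leidenalg 0.10.2) were named from at least 3 markers. Of each library's barcodes, those under 500 UMIs numbered 0, 3400 and 294 in Ctrl, WIF1-2w and WIF1-4w. The nearest gene is that with the nearest start. RNA ratios use CPM within a class with a floor of 3 UMIs.

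Named were the members with most counts, those at promoters of list genes or nearest to Wif1, the genes nearest to most members, and the 5 most extreme genes by RNA each way. Members nearest to list genes and led by a class, and the definition of a leading class, were added after values were seen. Members and lists were chosen with earlier results of these data known. No test was possible with 1 library per group. Sequences are RefSeq promoter windows and miRNAs only, and peak sequences were not used here. Some items that these rules name are not reported here.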

Additional observations from a re-analysis of the deposited data

How the results depend on the processing

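No paired analysis was possible because each group is 1 library, and for the same reason no replicate could be left out. Over 38 results and 194 alternatives, 95 values stayed within the interval of the reported value (for numbers of peaks and genes, within 1.5 times), 93 moved further and 6 class ratios crossed 1; the cause was not tested. With peaks of at least 100 counts, 14700 members remained, the ratios were 0.665 for rod-like, 2.93 for Müller-like and 2.79 for microglia-like nuclei, 4.87% lay within 1 kb of a gene start, and the T cell and microglia lists had 38.1% and 24.2%. With members at least 500 bp from other peaks, the values were 0.537, 3.41, 3.27 and 3.72%. Against other peaks of 45 to 249 counts, whose median is 143 against the members' 90, rod-like nuclei crossed to 1.22, cone-like to 0.997 and bipolar-like to 0.678, and Müller-like and microglia-like nuclei had 1.21 and 2.26. With nuclei of at least 1000 UMIs, the ratios were 0.404 (rod), 2.29 (Müller), 2.18 (microglia), and below 1 for cone (0.745) and bipolar (0.951). With nuclei named by marker score, they were 0.561 (rod), 2.44 (Müller), 1.33 (microglia), 0.956 (cone), 1.22 (amacrine), 1.36 (pericyte) and 1.21 (endothelial). With called doublets kept, Müller-like and microglia-like nuclei had 2.91 and 3.06. Without the 5 nuclei of each class with most member counts, chosen after seeing the data, rod-like and microglia-like nuclei had 0.562 and 3.15. The median member count over that of other peaks was 0.308 in kept nuclei, 0.300 over all barcodes and 0.311 per kb. With genes of at least 1 UMI the median log2 RNA ratio turned sign for rod-led (0.07), bipolar-led (0.17) and Müller-led (−0.18) members, and with peaks of at least 100 counts for rod-led and bipolar-led (0.02 each). From 1 UMI, genes with at most 3 UMIs in both libraries take a ratio fixed by the floor of 3 UMIs and the class totals. By the nearest edge of a gene, 4.78% of members lay within 1 kb. The Müller-like share of promoter-member genes at least 2-fold higher was 25.2% from 10 UMIs (all genes 9.95%), 8.68% from 1 UMI (5.71%) and 11.6% over 4 weeks (3.92%). The leading class of members depends on its definition: with classes of any count competing, 3290 were bipolar-led, 895 rod-led and 3678 Müller-led, and with classes of at least 20 counts 9726, 2689 and 4212. Counts per member limit what can be seen, since the median member rests on 46 barcodes.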
